A study of Mus musculus with 18 samples.

Results

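The genes of oxidative phosphorylation were followed in bulk RNA-seq of mouse quadriceps, the large muscle at the front of the thigh. Members were the protein-coding genes with a counted exon length whose symbols begin as the subunit families do (Nduf, Sdh, Uqcr, Cox4 to Cox8, Atp5) or that name a mitochondrially encoded subunit. This gave 105 genes of 48709 listed, 92 in nuclear chromosomes and 13 in the mitochondrial genome. By complex, nuclear and mitochondrial members numbered 44 and 7 for complex I, 4 and 0 for complex II, 8 and 1 for complex III, 20 and 3 for complex IV, and 16 and 2 for complex V. The rule also takes in the Ndufaf assembly factors of complex I.

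The dyW mouse carries the Lama2tm1Eeng allele of the laminin alpha 2 gene and serves to model the muscular dystrophy of LAMA2 deficiency; the WT mice were C57BL/6J, and each library came from 1 animal. In the untreated cohort, labelled 5 weeks old, there were 3 WT and 4 dyW mice. In the treated cohort, labelled 3 weeks old although the protocol places collection at 5 weeks, there were 3 WT and 3 dyW mice given PBS (saline) and 2 WT and 3 dyW mice given TD139, a small-molecule inhibitor of galectin-3. The dose and route of TD139 are not given in the sources used here. Age label and treatment differ together between the cohorts and cannot be told apart.

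Oxidative phosphorylation passes electrons from NADH through complex I, or from succinate through complex II, to complexes III and IV, while protons are pumped across the inner mitochondrial membrane; complex V, ATP synthase, uses the returning protons to make ATP. Complexes I, III, IV and V are each built from subunits of both genomes, whereas complex II is wholly nuclear. Several complex IV subunits exist as a form made in most tissues and a form of heart and skeletal muscle, such as Cox6a1 and Cox6a2.

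Libraries held 15.8 to 45.2 M (mega) exon reads, with the fewest in dyW PBS replicate 1. Lama2 was at 0.431 to 1.14 RPKM after scaling by edgeR's TMM factors (scaled RPKM below) in all 10 dyW libraries and at 2.84 to 6.76 in the 8 WT libraries. Of 3 cardiac markers at least 1 was at 0 in every library and their sum was at most 1.64, and the 3 sperm markers summed to at most 0.209. Several libraries stood apart. Myh7, the slow-fibre myosin, was at 187 and 254 in untreated dyW replicates 3 and 4 and at 474 in WT PBS replicate 1, against at most 43.5 elsewhere. Cidea, an adipocyte gene, was at 45.1 and 136 in untreated dyW replicates 1 and 2, against at most 28.6 elsewhere. Short transcripts (exon length under 1000 bases) were high relative to long ones (over 4000 bases) in untreated dyW replicates 3 and 4, WT PBS replicate 2, dyW PBS replicate 1 and WT TD139 replicate 1: the difference of their median log2 deviations was 0.28 to 0.498 there and -0.467 to 0.197 in the other libraries. As whole muscle was measured, fewer cells of a type and less RNA per cell cannot be told apart.

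The 13 mitochondrial genes far outweighed the 92 nuclear ones. They took 8.836% to 15.51% of all exon reads, the nuclear members 1.527% to 2.905%. Among the mitochondrial genes the median level per length over the 18 libraries ran from 21700 scaled RPKM for mt-Co1, the catalytic subunit of complex IV, down through 18400 for mt-Co2 and 17400 for mt-Atp6. Among nuclear members the lowest included the complex I assembly factor Ndufaf3 at 6.44, the complex V coupling factor B gene Atp5s at 5.05 and Cox4i2 at 3.04. Cox7b2 and Cox8c had no read in any library, so 103 members, 90 of them nuclear, were tested. Unique reads were 56.34% of all reads for Atp5h and 85.21% for Cox5b, whose levels are uncertain for that reason; for the other members they were 97.14% or more.

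The ratio of mitochondrial to nuclear reads, which needs no scaling between libraries, was 6.437, 7.092 and 6.333 in untreated WT. In untreated dyW it was 6.497 and 6.75 in replicates 1 and 2 but 3.172 and 3.31 in replicates 3 and 4. The untreated dyW group was thus split, with replicates 1 and 2 inside the WT range and replicates 3 and 4 below it; these last are the libraries of high Myh7 and of high short transcripts, whose part in the ratio was not tested. In the treated cohort the ratio was 5.565, 5.125 and 4.853 in WT PBS and 4.819, 4.55 and 5.14 in dyW PBS, groups that overlapped. With TD139 it was 5.585, 6.19 and 5.816 in dyW and 5.444 and 5.402 in WT. All 3 dyW TD139 libraries thus lay above all 3 dyW PBS libraries.

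**Figure D1:**
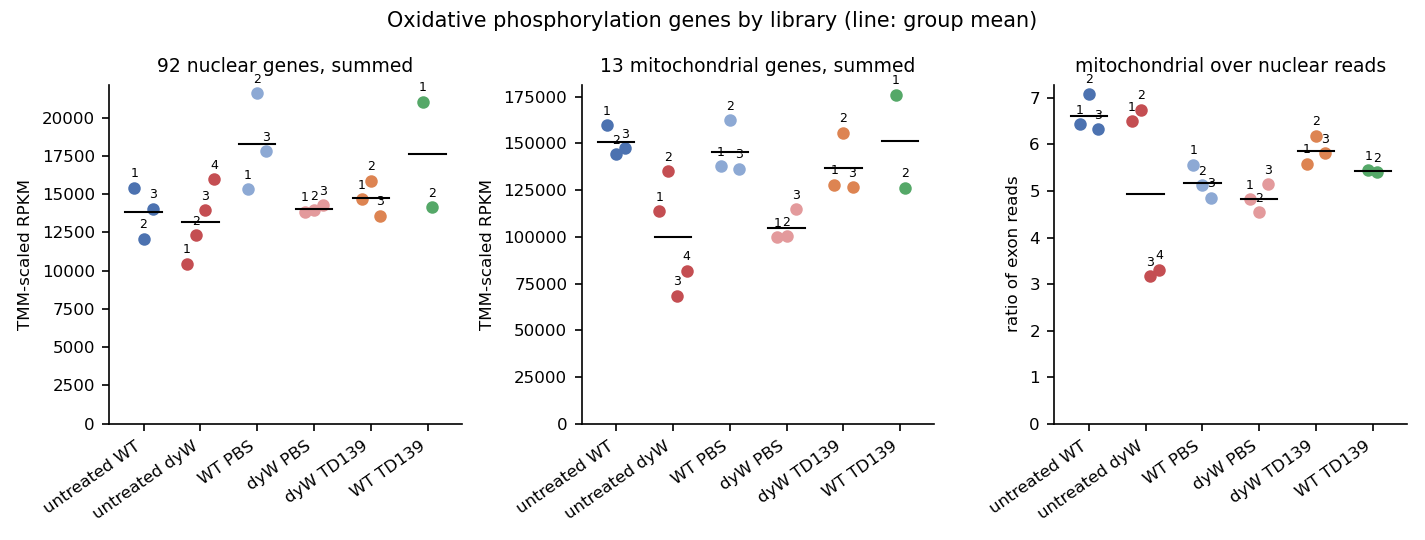
Summed level of the nuclear and of the mitochondrial genes in scaled RPKM, and the ratio of their exon reads, for each of 18 libraries; points are mice with their replicate number and lines are group means. Untreated dyW replicates 3 and 4 have the lowest ratios, 3.172 and 3.31.

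In untreated quadriceps, 2 nuclear members were higher in dyW than in WT, both in complex IV, and 10 were lower, 6 of them in complex I. Over all 14846 genes tested with edgeR (quasi-likelihood test, Benjamini-Hochberg adjusted p under 0.05), 24.7% were called higher and 25.1% lower. The median log2 difference was -0.07 over the nuclear members and 0.03 over all genes. Of the 13 mitochondrial genes 4 were called lower and 0 higher, and all 13 had estimates below 0, with a median of -0.65. By complex, the medians of nuclear members were -0.11 for I, -0.00 for II, -0.12 for III, 0.08 for IV and -0.06 for V. The mitochondrial medians were -0.86 for complex I, -0.62 for III, -0.46 for IV and -0.69 for V.

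Summed markers of several cell types separated the same groups, and their part in these differences was not tested. The summed level of 8 fast-fibre genes was 62900 to 85400 scaled RPKM in untreated WT and 25600 to 38600 in untreated dyW. Over 5 genes of regenerating fibres it was 17.2 to 32.9 in WT and 137 to 229 in dyW, over 6 macrophage genes 64.8 to 110 and 349 to 410, and over 5 fibroblast genes 721 to 796 and 983 to 1540. None of these 4 ranges overlapped between the genotypes. Single markers did not all follow their sum. Dcn and Pdgfra of the fibroblast genes had log2 estimates of -0.01 and 0.07 and did not pass the test. Myh1 of the fast-fibre genes was at 0.645, against the direction of its sum, and did not pass. Myod1 of the regenerating-fibre genes, at 0.40, did not pass either.

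The directions of the members are relative to the typical gene. On the authors' RPKM without TMM scaling, tested with limma on log2(RPKM + 0.1), the median of all genes moved to 0.51 and 51.4% of genes were called higher; 28 nuclear members were then called higher and none lower, with a median of 0.46, and no mitochondrial gene was called, with a median of -0.21. Nuclear members therefore sat near the all-gene median on both scales and mitochondrial genes below it on both, while the sign of the nuclear members depended on the scale. In the authors' deposited table of this comparison, 2 nuclear members were higher and 8 lower at their FDR under 0.05, all 10 called by edgeR too, and 5 mitochondrial genes were lower, 3 of them called by edgeR; 15.7% of all genes there were higher and 16.3% lower.

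**Figure D2:**
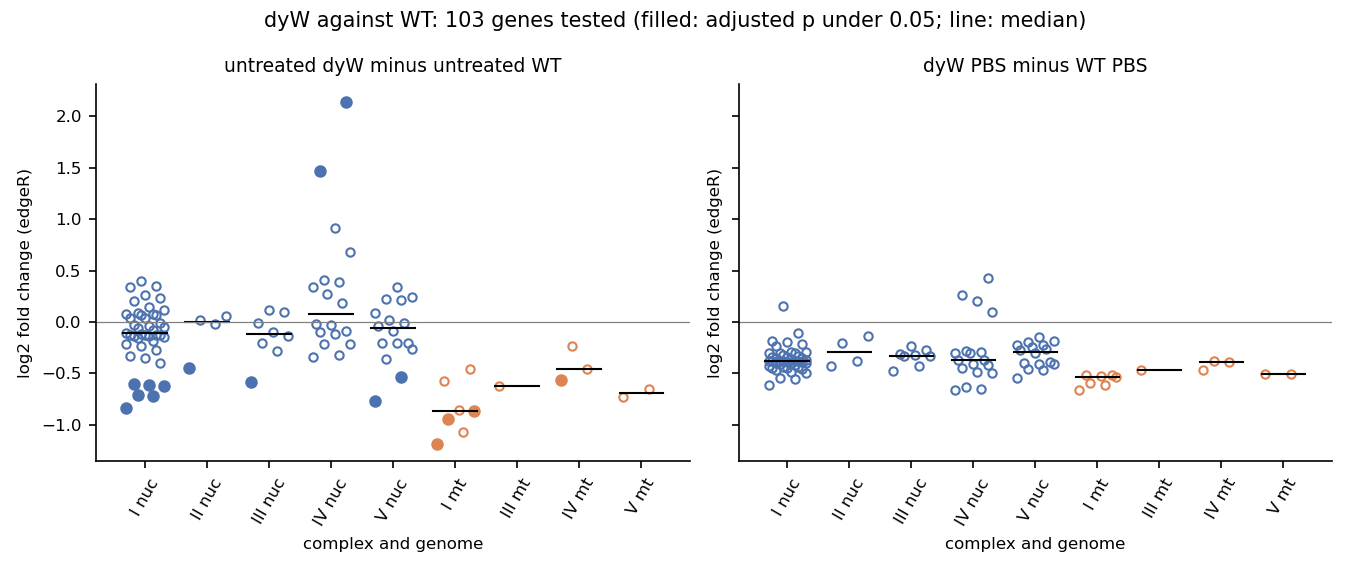
Log2 fold change of dyW against WT by edgeR for 103 members, by complex and genome, in untreated mice (left) and PBS mice (right); filled points have an adjusted p under 0.05 and lines are medians. Cox6a1 at 2.14 and Cox8a at 1.46 stand above the other members on the left, and no point is filled on the right.

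The 2 nuclear genes that rose were the widely expressed forms of a complex IV subunit whose muscle form did not pass the test. Cox6a1 (chr5:115345642-115348981, minus strand, in the coordinates of the deposited files) was at 47.58, 17.48 and 23.51 scaled RPKM in untreated WT and at 143.7, 230.6, 79.61 and 62.26 in untreated dyW. All dyW libraries lay above all WT libraries, and replicates 1 and 2 were the highest. The log2 fold change was 2.14 (SE 0.52, edgeR adjusted p = 0.00904). Cox8a (chr19:7215158-7217616, minus strand) was at 59.96, 30.00 and 38.85 in WT and at 145.7, 202.3, 60.04 and 60.86 in dyW. Its replicates 3 and 4 barely exceeded the highest WT library, and the log2 fold change was 1.46 (SE 0.47, edgeR adjusted p = 0.0293).

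The muscle forms took a different course. Cox6a2 was at 688.7, 530.7 and 585.9 in WT and at 361.8, 362.8, 548.0 and 630.7 in dyW, with a log2 estimate of -0.32 (edgeR adjusted p = 0.265). Cox8b was at 506.5, 355.7 and 383.7 in WT and at 223.4, 378.1, 448.8 and 493.2 in dyW, and the groups overlapped. Within each library, Cox6a2 exceeded Cox6a1 by 14.5, 30.4 and 24.9 times in WT and by 2.52, 1.57, 6.88 and 10.1 times in dyW. The dyW ratios were all below the WT ratios. Cox8b exceeded Cox8a by 8.45, 11.9 and 9.88 times in WT and by 1.53, 1.87, 7.48 and 8.1 times in dyW. Here too the groups did not overlap, though replicates 3 and 4 came close to the WT values.

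Adipocyte genes were high in the dyW libraries where Cox6a1 and Cox8a were highest, though no adipocyte marker passed the test between the genotypes. Over 4 white adipocyte markers the summed level was 25.3 to 82.9 in untreated WT and 30.9 to 314 in untreated dyW, and over 3 brown adipocyte markers 0.122 to 87.1 and 4.7 to 709. Adipoq was at 52.2, 14.7 and 22.1 in WT and at 184, 130, 46.6 and 19.6 in dyW, so that replicates 1 and 2 were again the highest. Ucp1, the uncoupling protein of brown fat, was at 67.4, 0 and 3.34 in WT and at 60.9, 556, 0.797 and 0.756 in dyW. Without dyW replicates 1 and 2, Cox6a1 was still called, at 1.30 (SE 0.39, edgeR adjusted p = 0.0291), whereas Cox8a was not, at 0.53 (SE 0.27, edgeR adjusted p = 0.138). The Cox8a call was also lost without WT replicate 2 or 3, or without dyW replicate 1 or 2, with edgeR adjusted p of 0.053 to 0.104. It was lost too when a sex term was added to the fit. The part of adipose tissue in the full difference was not tested.

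**Figure D3:**
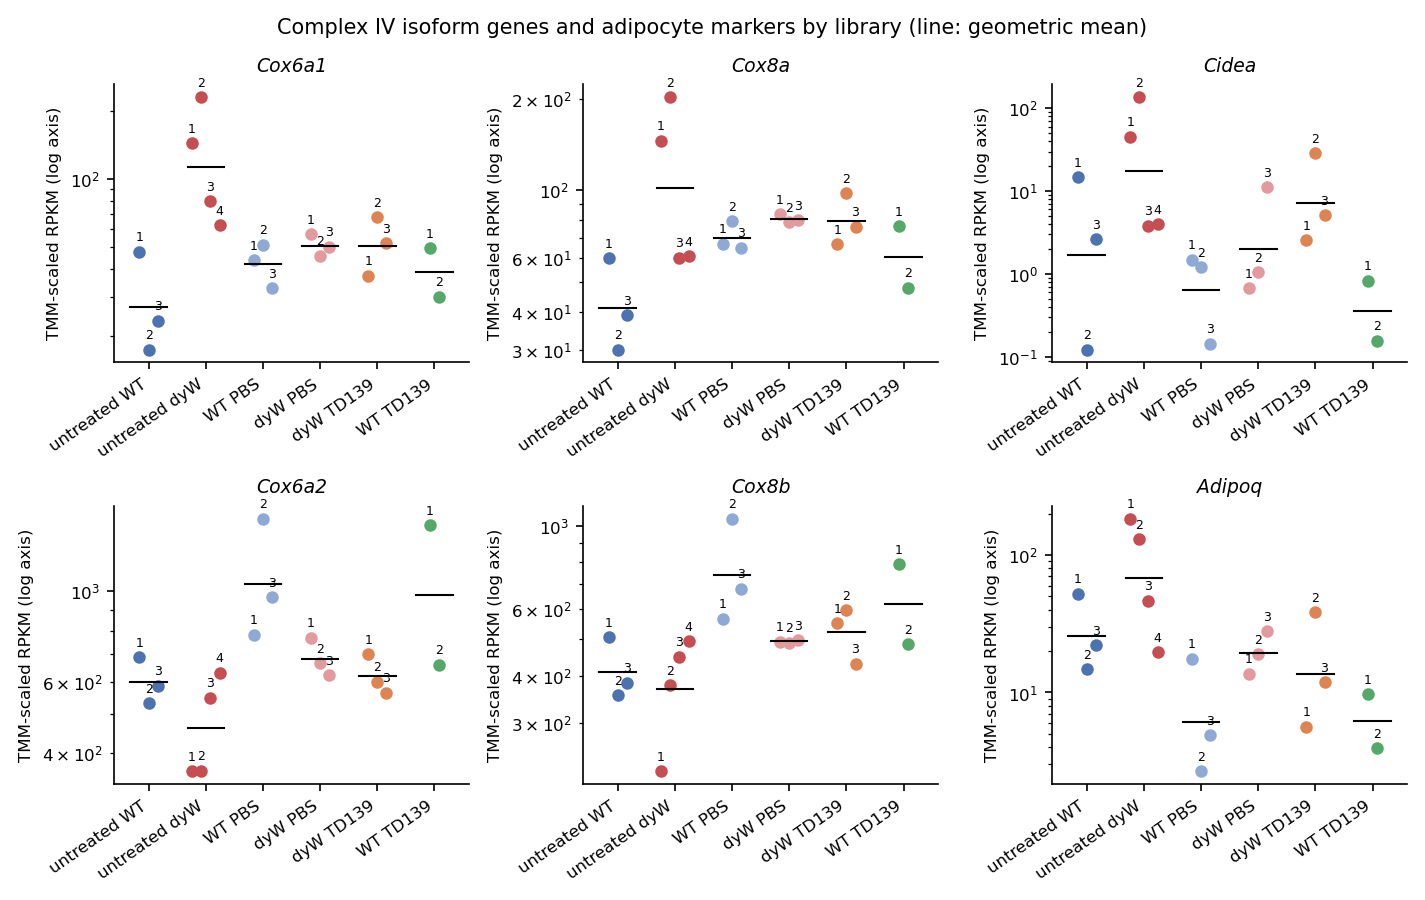
Levels in scaled RPKM (log axis) of Cox6a1 and Cox8a, of the muscle forms Cox6a2 and Cox8b, and of the adipocyte genes Cidea and Adipoq, in each of 18 libraries; numbers are replicates and lines geometric means. Untreated dyW replicates 1 and 2 are the highest of all libraries for Cox6a1, Cox8a, Cidea and Adipoq.

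The promoter windows of both genes that rose and of the muscle form Cox8b are printed as single examples. They are too few to show how widely expressed and muscle promoters differ. They are RefSeq windows on GRCm38.p6, from 250 bases before to 50 after the start, all on the minus strand and written 5' to 3'. Capitals mark matches on either strand to the NRF1 core GCGCANGCG, the ETS motif CCGGAAG bound by GABP, the estrogen-related receptor element AAGGTCA and the muscle E-box CAGCTG. The windows lie at chr5:115348909-115349208, chr19:7217567-7217866 and chr7:140900397-140900696 in the order printed.
Cox6a1: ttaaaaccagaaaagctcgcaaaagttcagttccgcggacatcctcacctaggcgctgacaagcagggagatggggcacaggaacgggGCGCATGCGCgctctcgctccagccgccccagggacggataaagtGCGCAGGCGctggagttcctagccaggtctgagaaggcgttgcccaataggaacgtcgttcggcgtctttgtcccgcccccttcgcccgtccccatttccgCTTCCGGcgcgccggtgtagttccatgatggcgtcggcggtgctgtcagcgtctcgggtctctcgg
Cox8a: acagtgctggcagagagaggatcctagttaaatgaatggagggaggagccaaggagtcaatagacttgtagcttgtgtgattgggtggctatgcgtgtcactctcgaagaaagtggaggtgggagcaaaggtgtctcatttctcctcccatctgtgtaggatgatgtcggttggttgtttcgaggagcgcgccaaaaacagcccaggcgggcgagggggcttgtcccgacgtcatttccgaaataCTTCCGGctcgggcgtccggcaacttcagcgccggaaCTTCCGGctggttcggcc
Cox8b: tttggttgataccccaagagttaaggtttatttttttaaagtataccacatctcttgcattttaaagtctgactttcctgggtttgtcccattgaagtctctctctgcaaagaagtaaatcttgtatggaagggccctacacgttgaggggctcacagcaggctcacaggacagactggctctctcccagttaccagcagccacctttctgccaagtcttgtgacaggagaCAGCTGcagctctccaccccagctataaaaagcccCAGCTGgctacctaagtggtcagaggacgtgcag

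The Cox6a1 window held 3 NRF1 matches, of which a pair overlap on opposite strands, and 1 ETS match. The Cox8a window held 2 ETS matches, and the Cox8b window 2 E-boxes and no match to the other motifs searched. Of the 92 nuclear members, 76 had a window in the table. An NRF1 match was in the windows of 28.9% of these, against 7.03% of 27025 genes; an ETS match in 22.4%, against 9.93%; an estrogen-related receptor match in 10.5%, against 5.38%; and an E-box in 7.89%, against 18.3%. A match is a string of letters and not evidence of binding in this muscle.

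The other complex IV pairs and core subunits did not pass the test in untreated mice. Cox7a1, the muscle form of subunit 7a, had an estimate of -0.22 and Cox7a2, its general form, -0.09. Cox4i1, the main form of subunit 4, was at 0.27, and Cox4i2, a form of lung and of low oxygen, at 0.68 (edgeR adjusted p = 0.0925). Cox6b1 was at 0.18 and its testis form Cox6b2 at 0.92 (edgeR adjusted p = 0.147), the latter from 341 reads over all 18 libraries. Ndufa4, named for complex I but part of complex IV, was at -0.34, and its relative Ndufa4l2 at 0.34. Cox7a2l, counted here with complex IV as an assembly factor, was at 130.6 and 149.9 in dyW replicates 3 and 4. It was at 82.28 and 92.05 in replicates 1 and 2 and at 82.78 to 89.62 in WT.

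In complex I the 6 lower members were 3 assembly factors and 3 subunits. Ndufaf5, an assembly factor, was at 13.97, 15.78 and 16.80 scaled RPKM in WT and at 7.22, 7.26, 8.965 and 11.03 in dyW, without overlap. Its log2 fold change was -0.83 (edgeR adjusted p = 0.00368). Ndufaf6 fell by 0.72 and Ndufaf4 by 0.62 on the log2 scale. Of 8 assembly factors of complex I among the members, 3 were thus lower and 5 did not pass, where 25.1% of all genes were lower. Ndufs1, the largest iron-sulfur subunit, was at 100.6, 85.31 and 103.7 in WT and at 54.62, 61.34, 61.33 and 70.30 in dyW, and fell by 0.63 (edgeR adjusted p = 0.00695). Ndufb4, an accessory subunit of the membrane arm, fell by 0.71 and Ndufc1 by 0.60. Ndufv1, the NADH-binding subunit, had an estimate of 0.27 that did not pass. On RPKM without TMM scaling these 6 genes kept estimates below 0 but were not called.

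In complex II, Sdha, the flavoprotein that oxidises succinate, was at 234.4, 220.7 and 231.5 in WT and at 156.7, 183.5, 156.0 and 167.6 in dyW. All 4 dyW libraries were below WT, and the log2 fold change was -0.45 (edgeR adjusted p = 0.0208), against 0.10 on RPKM without TMM scaling. The iron-sulfur subunit Sdhb was at -0.02. In complex III, Uqcrc2, a large core protein, fell by 0.59 (edgeR adjusted p = 0.0253), while its partner Uqcrc1 was at -0.10 and the Rieske protein Uqcrfs1 at -0.20. In complex V, Atp5s was at 7.203, 8.503 and 7.151 in WT and at 3.949, 4.261, 4.771 and 4.767 in dyW and fell by 0.76 (edgeR adjusted p = 0.00213). Atp5j, coupling factor 6 of the stalk, fell by 0.54, with 0.01 on unscaled RPKM. The F1 subunits Atp5a1 and Atp5b had estimates of -0.20 and -0.21 that did not pass.

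The 4 mitochondrial genes that fell in untreated dyW were mt-Nd5, mt-Nd6 and mt-Nd2 of complex I and mt-Co3 of complex IV. mt-Nd5 was at 3730, 4400 and 3880 scaled RPKM in WT and at 2457, 2740, 895.1 and 864.3 in dyW. Replicates 3 and 4 were far below replicates 1 and 2, which were themselves below WT; the log2 fold change was -1.19 (edgeR adjusted p = 0.0431). mt-Nd6, the one member on the other mitochondrial strand, was at 188.4, 125.3 and 168.0 in WT and at 67.28, 77.24, 81.99 and 103.4 in dyW, with a log2 fold change of -0.95 (edgeR adjusted p = 0.00318). Unlike mt-Nd5 it was not lowest in replicates 3 and 4. It overlaps mt-Nd5 by 14 bases, and whether the counting used strand is not given in the sources used here, so antisense reads cannot be told apart. mt-Nd2 fell by 0.86 and mt-Co3 by 0.57 (edgeR adjusted p = 0.0365 and 0.036).

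Levels of neighbouring mitochondrial genes differed between the untreated dyW libraries. mt-Atp8 and mt-Atp6, which are read from a shared mRNA and overlap by 43 bases, had a level ratio of 0.36, 0.464 and 0.391 in untreated WT. In dyW it was 0.463 and 0.465 in replicates 1 and 2 and 0.218 and 0.178 in replicates 3 and 4. mt-Nd4l and mt-Nd4, another shared mRNA with an overlap of 7 bases, had ratios of 0.294 and 0.255 in those libraries and 0.392 to 0.487 in untreated WT; WT PBS replicate 2, dyW PBS replicate 1 and WT TD139 replicate 1 were as low, at 0.281, 0.285 and 0.265. The ratio of mt-Nd5 to mt-Nd1 was 0.149 to 0.188 in the 5 libraries of high short transcripts in any group, and 0.268 to 0.452 in the other 13. Ratios between genes of a shared mRNA thus varied with the library within a group, and the part of RNA quality in this was not tested.

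Calls on mitochondrial genes other than mt-Nd6 changed with the libraries that were kept. Without untreated dyW replicates 3 and 4, mt-Nd6 alone was called lower, at -1.11 (edgeR adjusted p = 0.00632), and mt-Nd5 was at -0.57 (edgeR adjusted p = 0.0652); 16 nuclear members were lower, where 19.6% of all genes were. Without replicates 1 and 2 instead, 11 mitochondrial genes were lower and their median was -1.10, while 17 nuclear members were higher and 7 lower, where 27.2% of all genes were higher and 26.7% lower. Sdha was called in 10 of 18 alternatives, Uqcrc2 in 11, mt-Nd5 in 10, mt-Nd2 in 9 and mt-Co3 in 8, against 16 for mt-Nd6, Ndufs1, Ndufb4 and Ndufaf5. The count of lower nuclear members was 5 without WT replicate 3 and 6 without dyW replicate 3; that of higher ones was 5 without dyW replicate 1 and 1 without WT replicate 2, WT replicate 3 or dyW replicate 2. Leaving out any 1 of the 7 libraries gave 1 to 8 mitochondrial genes lower, 1 with each of the 3 WT libraries or of dyW replicates 3 and 4 left out, 2 without dyW replicate 1 and 8 without dyW replicate 2. The share of all genes called in either direction moved too, from 49.8% with all 7 libraries. It was 38.2% without WT replicate 2 or 3, 41.7% without dyW replicate 3, 44.4% without dyW replicate 2 and 52.4% without dyW replicate 1.

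**Figure D4:**
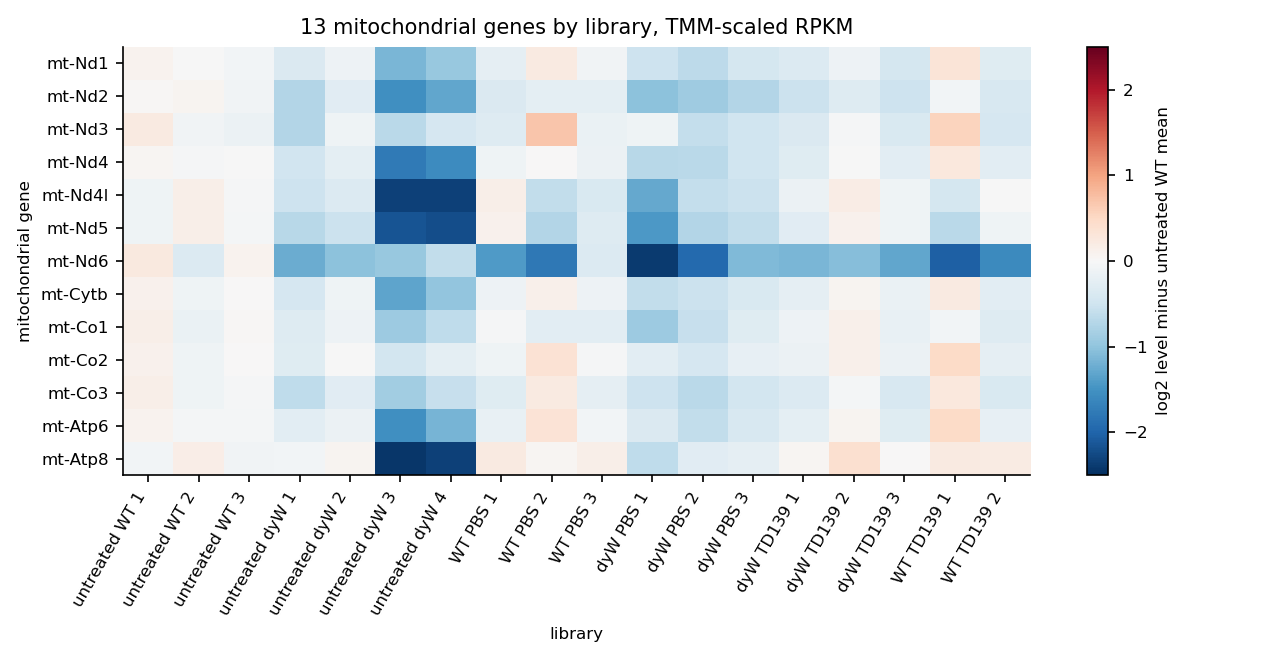
Log2 level of the 13 mitochondrial genes in each library minus the untreated WT mean (colour, scaled RPKM). Untreated dyW replicates 3 and 4 are the lowest columns for mt-Atp8, mt-Nd4l and mt-Nd5, with mt-Atp8 at 1503 and 1600 scaled RPKM.

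Genes around the chain were counted from lists of textbook members, to be read against the 25.1% of all genes that were lower and the 24.7% that were higher. Of 40 tested assembly factors that the naming rule leaves out, 16 were lower in untreated dyW, 1 was higher and 23 did not pass, with a median of -0.20. The lower ones included Coa7 at -1.29, Taco1 at -0.99, a translational activator of mt-Co1, and Atpaf1 at -0.81, which assembles the F1 head. Of 28 genes for expression of the mitochondrial genome, 12 were lower and 1 was higher, with a median of -0.30; the mitochondrial transcription factors Tfb2m and Tfam were at -0.81 and -0.35. Of 18 enzymes of the tricarboxylic acid cycle, 5 were lower and 1 higher; Idh3a was at -0.61 and Idh2 at 1.31. Coenzyme Q synthesis had 4 of 13 lower and 1 higher (Coq8b, 1.78), and import and inner membrane genes had 8 of 18 lower and 4 higher.

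In the PBS mice, where the same genotypes were compared, no member passed the test. Over 15331 genes, 2.4% were called higher and 0.28% lower by edgeR. The nuclear median was -0.37 and the mitochondrial median -0.52, against -0.03 over all genes; 85 of 90 nuclear and all 13 mitochondrial estimates were below 0. Without WT PBS replicate 2, one of the libraries of high short transcripts, the medians were -0.22 and -0.43. On unscaled RPKM the all-gene median was 0.25 and these medians -0.06 and -0.21. At an unadjusted p under 0.05 there were 19 nuclear and 5 mitochondrial genes, where 15.1% of all genes were. DESeq2 called 1 nuclear and 3 mitochondrial members lower (Ndufa10, mt-Nd2, mt-Atp8 and mt-Nd4), where it called 1.17% of genes lower. Regenerating-fibre genes summed to 31.0 to 47.8 in WT PBS and 107 to 124 in dyW PBS, and macrophage genes to 35.5 to 48.7 and 109 to 251, without overlap. Fast-fibre sums overlapped, at 44700 to 115000 in WT PBS and 57200 to 61300 in dyW PBS. Fibroblast sums did too, at 692 to 1140 and 747 to 1430. Myh3 and Myod1 of the regenerating-fibre genes had log2 estimates of 0.80 and 0.92 and did not pass the test. The part of these cell types in the members' values was not tested.

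The members with the smallest p in PBS mice were all lower. mt-Nd2 was at 6624, 7171 and 7212 scaled RPKM in WT PBS and at 4194, 4618 and 5088 in dyW PBS, without overlap, and its log2 estimate was -0.59 (SE 0.19, edgeR adjusted p = 0.14). mt-Atp8 was at -0.50 (edgeR adjusted p = 0.216) and Ndufaf6 at -0.54 (edgeR adjusted p = 0.224). Cox6a1 was at 43.61, 50.94 and 32.78 in WT PBS and at 56.97, 45.54 and 49.94 in dyW PBS, so the groups overlapped. Cox8a was at 66.81, 79.16 and 64.83 in WT PBS and at 83.65, 78.43 and 79.84 in dyW PBS. Cidea was at most 11.2 in these libraries. Without WT PBS replicate 1, the library high in Myh7, Ndufaf5 was called, at -0.65 (edgeR adjusted p = 0.0325), where 3.94% of all genes were called in either direction.

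The genotype difference was then compared between cohorts. No member passed, where 1.72% of 15771 genes did by edgeR in either direction, and 6 nuclear and 0 mitochondrial members had an unadjusted p under 0.05, where 22.7% of all genes did. Cox6a1 came nearest, with a log2 difference of 1.87 (SE 0.59, edgeR adjusted p = 0.0857). It passed with DESeq2 at 1.92 (adjusted p = 0.0187), where 7.53% of all genes were called. Without untreated WT replicate 1 it passed at 2.40 (edgeR adjusted p = 0.0434), where 2.62% were called. Next were Atp5s at -0.60 (edgeR adjusted p = 0.0994) and Cox8a at 1.25 (edgeR adjusted p = 0.167). The lower nuclear members called in untreated mice are thus not shown to differ between the cohorts.

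TD139 was compared with PBS in dyW mice. No member passed, nor did any of 15331 genes (0.0% by edgeR); at an unadjusted p under 0.05 there were 2 nuclear and 5 mitochondrial members, where 3.8% of all genes were, and DESeq2 called no member. The mitochondrial median was 0.42, the nuclear 0.04 (-0.00 on unscaled RPKM) and that of all genes -0.01. All 13 mitochondrial estimates were above 0, on unscaled RPKM and with each library left out too, and for 11 of them all 3 TD139 libraries lay above all 3 PBS libraries, as 7.18% of all genes did. The 13 genes lie in the same genome and some share an mRNA. Their counts, here and in the other comparisons, are therefore not counts of independent genes. mt-Atp8 was at 5206, 6686 and 6934 scaled RPKM with PBS and at 8388, 10620 and 8190 with TD139, with a log2 estimate of 0.53 (SE 0.19, edgeR adjusted p = 0.888). mt-Nd5 was at 1472, 2392 and 2614 with PBS and at 3301, 4273 and 3684 with TD139, an estimate of 0.80. Within both genes dyW PBS replicate 1, the shallowest library and one of high short transcripts, was the lowest. Without it the mitochondrial median was 0.35. The ratio of mt-Nd5 to mt-Nd1 was 0.188 to 0.337 with PBS and 0.372 to 0.446 with TD139, without overlap. That of mt-Nd4l to mt-Nd4 was 0.285 to 0.457 and 0.478 to 0.491, also without overlap. That of mt-Atp8 to mt-Atp6 overlapped, at 0.334 to 0.514 and 0.496 to 0.505. The part of RNA quality in the TD139 estimates was not tested.

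Summed fibre-type markers differed between the same 2 groups. The summed level of 7 oxidative-fibre genes was 93.2, 105 and 220 scaled RPKM in dyW PBS and 348, 418 and 548 in dyW TD139, and that of 8 fast-fibre genes was 58600, 61300 and 57200 with PBS and 50400, 46700 and 46700 with TD139. Neither overlapped. Single fast-fibre genes did not all follow their sum. Myh1 had a log2 estimate of 0.78, against the direction of the sum, and Myh4 was at -0.03. Pvalb had the lowest estimate of these genes, at -0.67. Myh7 of the oxidative-fibre genes was at 1.86, 2.74 and 0.449 with PBS and at 6.57, 20.4 and 43.5 with TD139 (edgeR adjusted p = 0.888). No single fibre-type gene passed the test. The part of fibre type in the mitochondrial values was not tested.

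Nuclear members with TD139 in dyW had the smallest p in Cox6b2, at -1.44 on the log2 scale from few reads, and Ndufaf4, at 0.35 (edgeR adjusted p = 0.888 for both). Cox6a1 was at 37.15, 67.42 and 51.71 with TD139, overlapping its PBS values above. The nuclear medians by complex were 0.02 for I, 0.30 for II, 0.07 for III, 0.03 for IV and 0.05 for V. In the authors' deposited table of this comparison no member was past an FDR of 0.05.

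**Figure D5:**
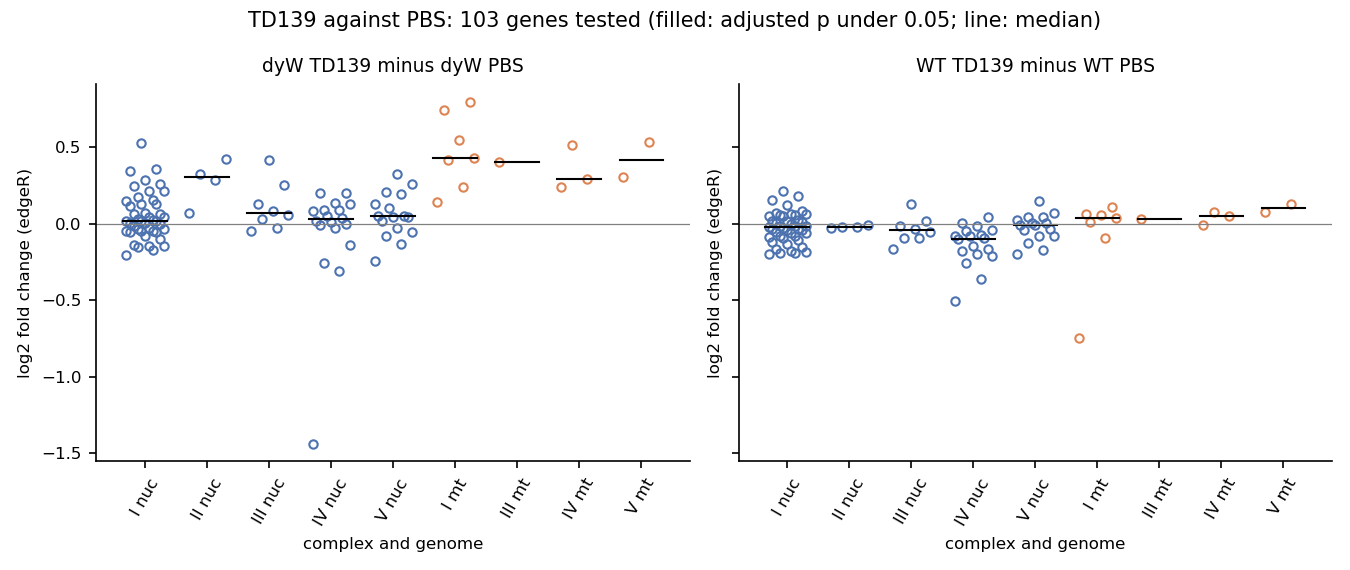
Log2 fold change of TD139 against PBS by edgeR for 103 members, by complex and genome, in dyW (left) and WT (right); open points did not pass the test and lines are medians. The 13 mitochondrial points all lie above 0 in dyW, with a median of 0.42, and 10 of 13 do in WT, with a median of 0.05 that is -0.05 on unscaled RPKM.

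In WT mice, with 2 TD139 libraries, no member and no gene passed (0.0%), no member had an unadjusted p under 0.05, where 1.98% of genes did, and DESeq2 called no member. The medians were -0.04 for nuclear and 0.05 for mitochondrial genes, against -0.13 and -0.05 on unscaled RPKM, where the all-gene median was -0.08. The smallest p was that of mt-Nd6, at -0.75 (edgeR adjusted p = 1.0). These medians rest on single libraries: without WT TD139 replicate 1, one of high short transcripts, they were -0.36 and -0.24, and without replicate 2 they were 0.19 and 0.26. When the TD139 effect in dyW was set against that in WT, no member and no gene passed (0.0%) and DESeq2 called no member, and mt-Nd6 alone among members had an unadjusted p under 0.05, where 1.92% of genes did. The mitochondrial median of this difference was 0.36, but 0.61 without WT TD139 replicate 1 and 0.14 without replicate 2, when 5 of 13 estimates were below 0. A difference in response between the genotypes is therefore not shown. These comparisons share the PBS libraries with those above.

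Against WT, dyW mice given TD139 had no member called either, by edgeR or by DESeq2. Compared with WT PBS, 2.44% of genes were called, and 9 members, all nuclear, had an unadjusted p under 0.05, where 15.9% of genes did. The nuclear median was -0.28 and the mitochondrial -0.12, against -0.01 and 0.14 on unscaled RPKM, where the all-gene median was 0.23, with Ndufc1 at -0.76 and Cox6a2 at -0.81 (edgeR adjusted p = 0.192 and 0.209). Without WT PBS replicate 1, Ndufaf5, Ndufc1 and Ndufa12 were called lower, where 6.77% of all genes were called in either direction. The medians were then -0.39 and -0.22, and without replicate 2 they were -0.16 and -0.00. Compared with WT TD139, 1.04% of genes were called, and 5 members, all nuclear, had an unadjusted p under 0.05, where 15.8% of genes did. The medians were -0.24 and -0.21, against 0.12 and 0.17 on unscaled RPKM with an all-gene median of 0.33, with Ndufaf5 at -0.55 (edgeR adjusted p = 0.234). Without WT TD139 replicate 1 these medians were 0.05 and 0.07. By the scale-free read ratio, dyW TD139 at 5.585 to 6.19 lay only just above WT PBS at 4.853 to 5.565. It also lay above the 2 libraries of WT TD139, at 5.402 and 5.444. WT PBS replicate 2 and WT TD139 replicate 1 were libraries of high short transcripts, whose part in this ratio was not tested.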

How the data were processed

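Messenger RNA-seq of 18 quadriceps libraries was analysed from the authors' files. Per the file headers, the authors deposited total and unique exon read counts, an exon length (the other unit used) and RPKM per gene and library; the genome was mm10 per the submitters' processing notes, and the aligner and counter are not given in the sources used here. The authors also deposited 2 comparison tables with a log2 fold change and an FDR p-value, whose test is not given there.

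Total exon read counts entered edgeR 4.0.16 under R 4.3.3 (TMM, filterByExpr with minimum count 10 and minimum total 15, quasi-likelihood, Benjamini-Hochberg over all genes tested, adjusted p under 0.05). The untreated cohort was fitted alone, the treated cohort as 4 groups, and the difference between cohorts on all 18 libraries. Levels are RPKM scaled by TMM over 18 libraries. Alternatives used DESeq2 1.42.0, limma 3.58.1 on log2(RPKM + 0.1) or log2(RPKM + 1), RLE factors, scaling without mitochondrial reads, no low-count filter, unique reads, a sex term, other sets of libraries and leaving out each library. The script was tested on simulated data. Each library has its own animal number and samples were not paired. Nothing in the labels pairs or batches the mice, and p-values measure spread between mice.

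Genes were named by rule: all mitochondrial genes, isoform pairs, 10 core subunits, and per complex the 2 largest called changes in each direction, or without calls the 3 smallest p in each direction. Ndufaf4, Ndufb4, Ndufc1 and Cox7a2l, list members and genes named from alternatives fall outside it and were chosen after their values were seen. Members and lists were chosen with earlier results of these data known. Symbols and coordinates are those deposited; promoters were matched by symbol (73) or older symbol (3).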

Additional observations from a re-analysis of the deposited data

How the results depend on the processing

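No paired analysis was possible because the labels give each library its own animal number and no number joins mice across groups. In untreated mice, edgeR gave 2 nuclear members higher, 10 lower and 4 mitochondrial genes lower. RLE factors, unique reads and scaling without mitochondrial reads gave the same counts. DESeq2 and the fit of all 18 libraries each gave 8 mitochondrial genes lower, and a sex term 1 nuclear member higher, which was Cox6a1. Of all genes, edgeR called 49.8% in either direction, DESeq2 52.6%, the fit of 18 libraries 45.8% and that with a sex term 48.6%. On unscaled RPKM, limma gave 28 nuclear members higher with a pseudocount of 0.1 and 27 with 1, with 0 nuclear and 0 mitochondrial lower. It called 60.1% and 58.7% of all genes. Sdha reversed to 0.10 and Atp5j to 0.01 with either pseudocount. Leaving out 1 library gave 1 to 5 nuclear members higher, 5 to 10 lower, and 1 to 8 mitochondrial genes lower. Of all genes 38.2% to 52.4% were then called. Chosen after seeing the data, leaving out dyW replicates 3 and 4 gave 16 nuclear members and 1 mitochondrial gene lower, where 41.3% of all genes were called. Leaving out replicates 1 and 2 gave 17 nuclear members higher and 11 mitochondrial genes lower, where 53.9% of all genes were called. Except for the changed scaling and the fewer samples, the cause was not tested. Cox6a1 was called higher in all 18 alternatives of this comparison and Cox8a in 12.

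In PBS mice, DESeq2 gave 1 nuclear and 3 mitochondrial members lower, where it called 5.64% of all genes in either direction. Leaving out 1 library gave 0 to 1 nuclear lower, where 0.816% to 3.94% of all genes were called. For dyW TD139 against WT PBS, leaving out 1 library gave 0 to 3 nuclear members lower, where 0.627% to 6.77% were called. For the difference between cohorts, DESeq2 gave 1 nuclear member higher, where it called 7.53% of all genes. Leaving out 1 library there gave 0 to 1, where 0.0% to 4.04% were called. Every other alternative of the 7 comparisons other than the untreated one called 0 members. Depth limits Cox6b2 most, with 341 reads over 18 libraries; counts of reads cover counting error only.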

Other observations

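mt-Nd6, the complex I subunit on the other mitochondrial strand, had lower values in the treated than in the untreated WT libraries. It was at 188.4, 125.3 and 168.0 scaled RPKM in untreated WT and at 59.64, 45.70 and 124.1 in WT PBS, so every WT PBS library was below every untreated WT library, though replicate 3 only just. In WT TD139 it was at 38.33 and 52.65, and in dyW PBS at 30.12, 41.04 and 73.41. In dyW the cohorts overlapped: untreated dyW was at 67.28, 77.24, 81.99 and 103.4, and dyW TD139 at 71.39, 75.79 and 64.01. The cohorts differ in age label and treatment, which cannot be told apart, and the cohort difference was not tested. Whether the counting used strand is not given in the sources used here, so antisense reads cannot be told apart here either.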
